A study of Mus musculus with 20 samples.

Results

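The core circadian clock genes were described here by 10 members, Clock, Arntl, Per2, Per3, Cry1, Cry2, Nr1d1, Nr1d2, Dbp and Bhlhe41. They were chosen by gene symbol from a table of 29671 genes measured in the mouse amygdala, the forebrain structure best known for its part in fear and stress. All 10 members passed the filter on low counts and stood among the 16727 genes tested. The mRNA of 20 mice was sequenced, with 5 biological replicates in each of 4 groups. The F2 stress group and the F2 no-stress group were the later generation of a stress and of a no-stress lineage. The F1 stress group and the F1 no-stress group were the earlier generation of the same lineages. Every mouse was a male of strain C57B6, bred in house and killed at postnatal day 84 without behavioural testing. The unpredictable chronic stress had been given to an ancestor in adolescence, not to the mice sampled, and the title asks whether it is seen in the amygdala transcriptome of descendants. The labels do not say which parent was stressed, and they name no litter, batch or hour of day at which tissue was taken. Where mice of a group were littermates, the spread behind the p-values may be smaller than that between families.

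The mammalian clock is a feedback loop of transcription that most cells carry. Clock and Arntl encode the partners of an activator that binds E-boxes, and the Per and Cry genes it switches on encode the repressors that return to block it. A second loop runs through Nr1d1 and Nr1d2, nuclear receptors known as REV-ERBs, which repress Arntl at elements they share with the activating ROR receptors. Bhlhe41, also called Dec2, is a repressor that competes for E-boxes, and Dbp is an activator that binds D-boxes and carries the rhythm to output genes. In rodents the amygdala is known to express clock genes rhythmically, and glucocorticoids, the stress hormones of the adrenal cortex, can induce Per genes.

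The elements of this loop can be read in the promoters of several members. RefSeq promoter windows of build GRCm38.p6, from 250 bases before to 50 bases after each transcription start, were at hand for 9 of the 10 members (12 windows). Per2 was not matched. The elements searched, on both strands, were the E-box CACGTG, the E-box-like CACGTT, the D-box TTANGTAA and the ROR element core TAGGTCA. The E-box and the E-box-like element share all but the last letter, so a match to either is no match to the other. Among all 32851 promoters of the same length, CACGTG stood in 7.15%, CACGTT in 4.68%, TTANGTAA in 2.32% and TAGGTCA in 2.61%. At least 1 of them stood in 6 members, and the windows of Clock, Nr1d2 and Dbp held none of these letters. Arntl held TAGGTCA at base 31 after a start. The stretches of 100 bases around the matches in the other 5 members follow, 5′ to 3′ on the minus strand, because the E-box and D-box are the points at which the loop closes on its own genes. Capitals mark the matches, and CACGTT on the opposite strand reads AACGTG. The stretch of Cry1, at chr10:85185085-85185184, held an E-box 60 bases and an E-box-like element 79 bases before the start. That of Bhlhe41, at chr6:145865521-145865620, held an E-box 153 bases before it. Cry2 (chr2:92434185-92434284) and Nr1d1 (chr11:98775378-98775477) held E-box-like elements 166 and 28 bases before their starts. Per3, at chr4:151044806-151044905, held D-boxes 205 and 158 bases before its start.
Cry1: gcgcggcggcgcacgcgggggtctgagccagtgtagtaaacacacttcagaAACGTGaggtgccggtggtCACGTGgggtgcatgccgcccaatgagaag
Bhlhe41: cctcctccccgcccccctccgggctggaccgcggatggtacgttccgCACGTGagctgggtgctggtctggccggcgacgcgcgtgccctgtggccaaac
Cry2: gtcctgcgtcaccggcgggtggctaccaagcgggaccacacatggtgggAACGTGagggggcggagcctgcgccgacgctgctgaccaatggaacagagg
Nr1d1: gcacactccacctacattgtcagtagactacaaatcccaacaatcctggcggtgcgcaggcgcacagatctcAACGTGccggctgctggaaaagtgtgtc
Per3: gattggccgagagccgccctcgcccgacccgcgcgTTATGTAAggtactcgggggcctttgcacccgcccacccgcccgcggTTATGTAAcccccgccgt

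All members were measured well above the lowest counts. Cry1 had the smallest count of any member, 179 in a single library, which leaves a counting error of 7.47%. The libraries held between 13654890 and 13714805 counts, a spread of 0.439%. Values are given as CPM, the count of a gene scaled to the total of its library, and only for the order of the genes as CPM per kilobase of exon. On the per-kilobase scale the REV-ERB gene Nr1d1 was highest at 27.8 ± 5.8, followed by Nr1d2 at 23.7 ± 2.97, the repressor gene Cry2 at 23.2 ± 2.08 and Dbp at 18.5 ± 5.49 (SD, n = 20). Each of these 4 genes overlapped its neighbour within 1 SD. Compared within libraries, Nr1d1 lay above Nr1d2 in 13 of 20, Nr1d2 above Cry2 in 14 and Cry2 above Dbp in 16. Clock followed at 7.61 ± 0.579, below Dbp in 20 of 20 libraries, then Bhlhe41 at 6.67 ± 1.31, Per2 at 5.07 ± 0.997, Per3 at 4.97 ± 1.01 and Cry1 at 4.91 ± 0.665. Arntl was lowest at 3.52 ± 0.585, and was below Cry1 in 19 of 20 libraries. Only the steps between Dbp and Clock and between Cry1 and Arntl were free of overlap within 1 SD. Bhlhe41 and Per2 overlapped by that measure, although Bhlhe41 was the higher in 19 of 20 libraries.

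**Figure D1:**
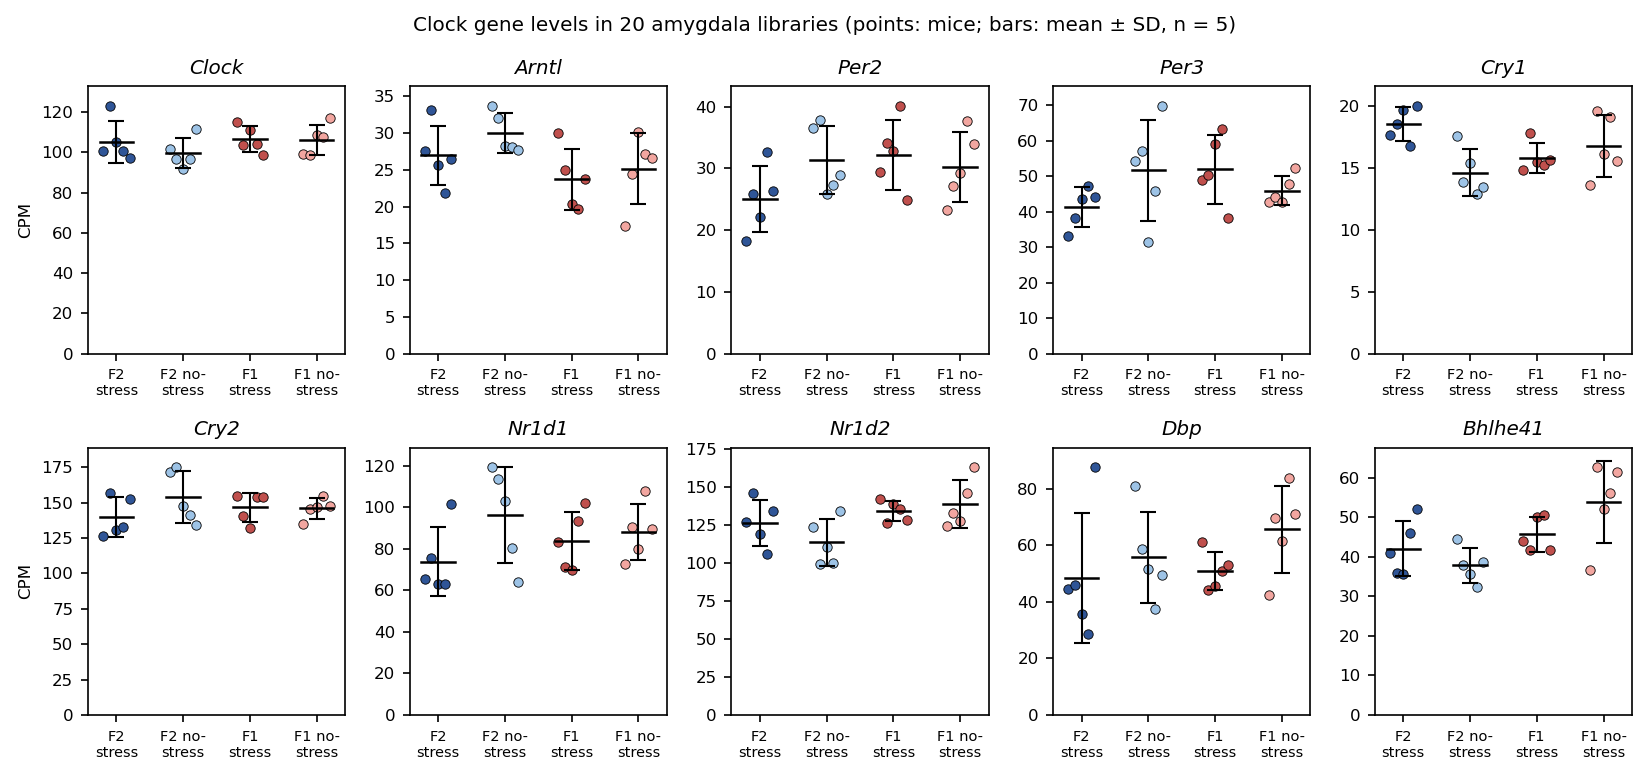
CPM of each of the 10 clock genes in the 20 amygdala libraries, with a panel for each gene, a point for each mouse and bars for the mean ± SD (n = 5) of each group. In every panel the points of the F2 stress, F2 no-stress, F1 stress and F1 no-stress groups share part of their range. Dbp is the most spread relative to its level, between 28.8 and 87.6 CPM.

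The members differed in how much they varied between mice of a group. Dbp had a within-group SD of 0.417 on the log2 scale and stood at the 95.5th percentile of 2494 genes of like level, whose median SD was 0.16. Nr1d1, Per3 and Per2 followed at 0.288, 0.284 and 0.272. The activator gene Clock was the steadiest at 0.109, at the 19.7th percentile of genes of its level. Over all libraries, the highest Dbp value was 3.05 times the lowest, and the highest Clock value 1.34 times the lowest. In bulk tissue, fewer cells of a type and less RNA per cell cannot be told apart in such values.

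Several members share exon sequence with a gene on the opposite strand, according to the GENCODE M21 annotation. Dbp shares 539 of its 2993 exon bases with the lipid kinase gene Sphk2, which averaged 12.9 CPM. Nr1d1 shares 263 of 3077 with the thyroid hormone receptor gene Thra, which averaged 499.9 CPM. Bhlhe41 shares 1280 of 6720, Cry2 295 of 6320 and Arntl 33 of 7523 with transcripts of no named protein. The library kit keeps strand, but whether the counting used it is not given in the sources used here. Without it, the reads of such a pair in their shared bases could not be told apart.

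In the F2 generation, none of the 10 clock genes separated the stress mice from the no-stress mice at the threshold, and the closest was Cry1. Cry1 encodes a cryptochrome, the repressor that binds the Clock and Arntl proteins. It was measured at 17.7, 18.6, 19.6, 16.7 and 20 CPM in F2 stress mice, against 17.6, 13.8, 15.3, 12.9 and 13.4 CPM in F2 no-stress mice. A single F2 no-stress mouse, at 17.6 CPM, reached into the range of the F2 stress mice, and the other F2 no-stress mice lay below all of them. The fold difference was 1.27, a log2 difference of 0.34 ± 0.11 (SE) with a 95% interval of 0.12 to 0.57, and the adjusted p was 0.0509 (edgeR quasi-likelihood test with Benjamini-Hochberg adjustment over all genes tested). This lies on the threshold of 0.05: the adjusted p was 0.0296 with DESeq2 and 0.0479 with limma-voom, and 0.102 when the trends of each library with GC content and length were offset (log2 difference 0.39). Of all genes tested, 7.91% passed in this comparison (1323 genes), and 0.0478% (8 genes) with the offset. The counts of members were 0 of 10 in both fits, and 1 of 10 (Cry1) with DESeq2 and with limma-voom. The shares of all genes called with DESeq2 and limma-voom are not given here, so that count has no background beside it. At an unadjusted p below 0.05 stood 2 members, Cry1 and Nr1d1, against 25.6% of all genes, a share close to that background.

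Nr1d1, Per2 and Per3, which also encode repressors, had estimates on the other side of 0 in F2, and none passed. Nr1d1, which encodes REV-ERB alpha, was measured at 65.6, 75.8, 62.9, 62.8 and 102 CPM in F2 stress mice, against 119, 114, 103, 80.5 and 64.1 CPM in F2 no-stress mice. The groups crossed at both ends, since the highest F2 stress mouse and the lowest F2 no-stress mouse each lay among the mice of the other group. The log2 difference was -0.38 ± 0.17 (adjusted p = 0.157, edgeR), and -0.10 with the GC and length offset. Per2, a period gene whose protein pairs with cryptochromes, averaged 25 ± 5.34 CPM in F2 stress mice and 31.3 ± 5.52 CPM in F2 no-stress mice (SD, n = 5 each). Its log2 difference of -0.32 ± 0.16 did not pass (adjusted p = 0.211, edgeR), and with the offset it was -0.14. Per3, the less essential period gene, averaged 41.3 ± 5.61 CPM in F2 stress mice and 51.7 ± 14.2 CPM in F2 no-stress mice, where it ran between 31.4 and 69.9 CPM. Its log2 difference was -0.32 ± 0.16 (adjusted p = 0.218, edgeR), and -0.22 with the offset. The F2 no-stress values of Per3 spanned the whole range of the F2 stress mice, so the means differ by less than the spread of that group.

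The remaining members differed less in F2. The log2 differences were 0.08 for Clock, -0.15 for Arntl, -0.14 for Cry2, 0.16 for Nr1d2, the gene of REV-ERB beta, -0.20 for Dbp and 0.15 for Bhlhe41. The 95% interval of Clock, -0.08 to 0.24, was the narrowest, and that of Dbp, -0.73 to 0.33, the widest. With the GC and length offset, Cry2 stood at 0.11 and Dbp at 0.21, on the other side of 0. Over the members the median log2 difference was -0.14, beside 0.001 over all genes tested, and 4 members lay above 0 and 6 below. With the offset the median of the members was 0.01. The GC contrast of each library was measured on the log2 scale, from the deviation of each gene from its own mean over the libraries. It is the median deviation of genes in the highest GC decile minus that in the lowest. It averaged -0.19 ± 0.26 in F2 stress libraries and 0.34 ± 0.27 in F2 no-stress libraries, and -0.07 ± 0.14 in F1 stress libraries and -0.07 ± 0.23 in F1 no-stress libraries (SD, n = 5 each). The members' own GC content ran from 40.9% in Clock to 61.6% in Dbp, beside a median of 49.4% over the genes tested, and the part of this contrast in the F2 differences was not tested beyond the offset. Among 9 lists of cell type markers, 3 of 12 endothelial genes passed as lower in F2 stress mice (Egfl7 at -0.57, Tie1 at -0.58 and Cldn5 at -0.49, edgeR). So did 1 of 12 central amygdala genes (Wfs1 at -0.50), and 0 genes of the other lists passed, beside 7.91% of all genes. The endothelial list had 5 genes above 0 and 7 below (median -0.09), and the central amygdala list 6 above and 6 below. With the offset none of the 4 called markers passed. The summed endothelial level had its median at 340 CPM in F2 stress libraries (215 to 415) and at 330 CPM in F2 no-stress libraries (283 to 332), and its part in the members' differences was not tested.

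**Figure D2:**
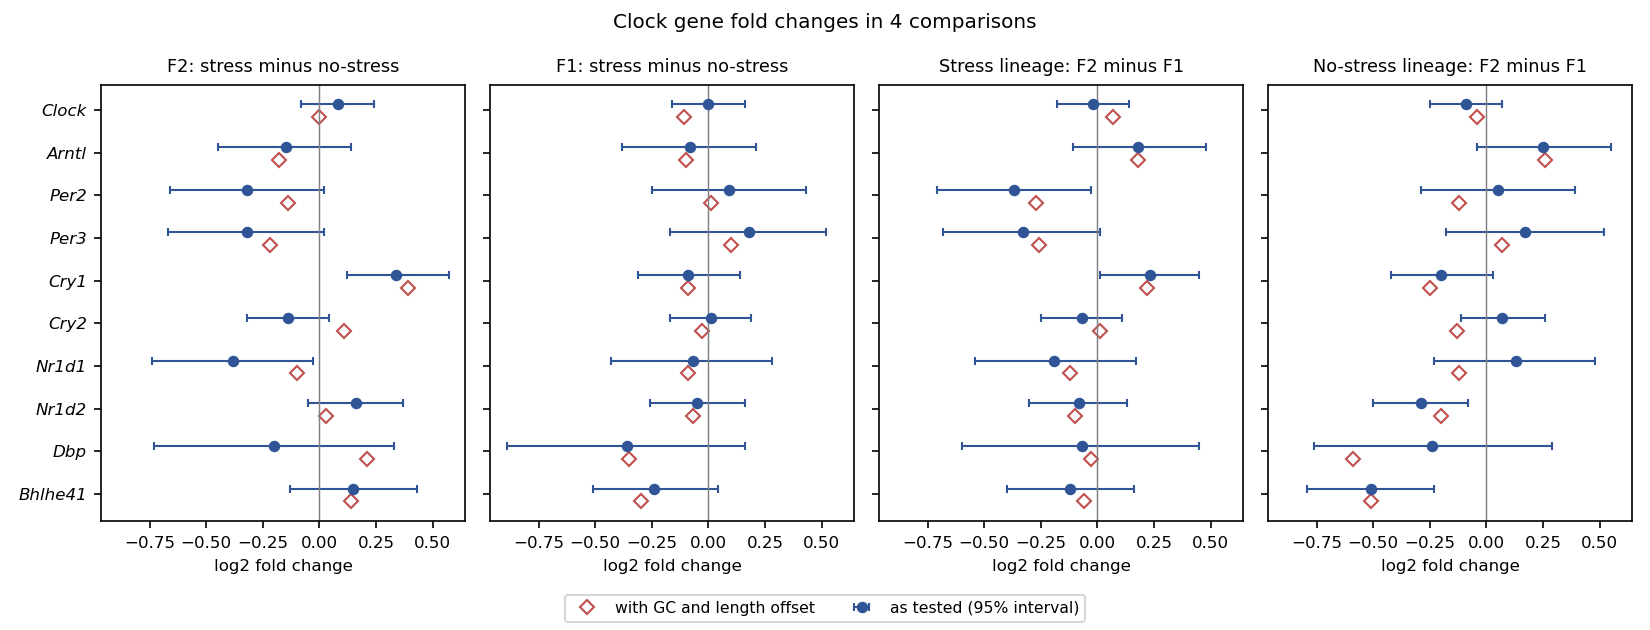
Log2 fold change of each clock gene in 4 comparisons, the stress lineage minus the no-stress lineage in F2 and in F1, then F2 minus F1 within each lineage, stress first. Filled points are the edgeR estimates with 95% intervals and open diamonds the estimates with the GC and length offset. Cry1 in F2 (0.34) and Bhlhe41 in the no-stress lineage (-0.51) keep their side of 0 with both, while Dbp and Cry2 in F2 have estimates on both sides of 0.

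In the F1 generation, no clock gene passed the test between lineages. Of all genes, 0% passed (edgeR quasi-likelihood test), and 0 of 10 members did, also with DESeq2 and with limma-voom. At an unadjusted p below 0.05 stood 0 members, against 6.16% of all genes. Dbp, the D-box activator, showed the widest gap. It was measured at 61.3, 44.2, 45.6, 50.9 and 53.0 CPM in F1 stress mice, against 42.3, 69.7, 61.4, 83.9 and 71.2 CPM in F1 no-stress mice. The F1 stress mice lay close together, while the F1 no-stress mice included both the lowest and the highest Dbp values of the generation. The log2 difference was -0.36 ± 0.25 (adjusted p = 0.74, edgeR). Beside it, the summed level of 15 marker genes of striatal neurons had its median at 3280 CPM in F1 stress libraries (1660 to 5080) and at 6220 CPM in F1 no-stress libraries (2280 to 9320), and 0 of the 15 markers passed the test. With that level as a term in the model, a fit added after the data were seen, the Dbp difference was 0.02. Bhlhe41 averaged 45.6 ± 4.36 CPM in F1 stress mice and 53.8 ± 10.4 CPM in F1 no-stress mice, a log2 difference of -0.24 ± 0.13 (adjusted p = 0.739, edgeR). Per3 differed by 0.18, and Clock, Arntl, Per2, Cry1, Cry2, Nr1d1 and Nr1d2 by between -0.09 and 0.09. The 95% interval for Clock was -0.16 to 0.16 and that for Cry2 was -0.17 to 0.19, so larger differences of these genes lie outside the intervals, whereas the Dbp interval reached from -0.89 to 0.16.

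The lineage effects of F2 and F1 were then compared directly, as the F2 log2 difference minus the F1 log2 difference. None of the 10 members passed, while 2.52% of all genes did (edgeR), and 0 members passed with DESeq2 or limma-voom. Cry1 again came closest, at 0.43 ± 0.15 (adjusted p = 0.107, edgeR): its lineage difference was 0.34 in F2 and -0.09 in F1. Per3 differed by -0.50 ± 0.23 (adjusted p = 0.216, edgeR), with lineage differences of -0.32 in F2 and 0.18 in F1. Bhlhe41 differed by 0.39 ± 0.19 and Per2 by -0.42 ± 0.23. With the GC and length offset, Cry1 stood at 0.47, Per3 at -0.33, Bhlhe41 at 0.44 and Per2 at -0.15. At an unadjusted p below 0.05 stood 3 members (Per3, Cry1 and Bhlhe41), against 21.2% of all genes. The median over the members was 0.00.

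Between generations, Bhlhe41 was the member that passed a test, and it did so in the no-stress lineage. It was measured at 44.5, 38.0, 35.7, 32.4 and 38.6 CPM in F2 no-stress mice, against 36.8, 62.6, 52.1, 56.0 and 61.3 CPM in F1 no-stress mice. A single F1 no-stress mouse, at 36.8 CPM, lay among the F2 no-stress mice, and the other F1 no-stress mice lay above all of them. Bhlhe41 was lower in F2 by a fold of 0.704, a log2 difference of -0.51 ± 0.13 with a 95% interval of -0.79 to -0.23 (adjusted p = 0.0496, edgeR quasi-likelihood test). The call sat at the threshold. It was kept with DESeq2 (adjusted p = 0.0127) and lost with limma-voom (0.0601), with the GC and length offset (0.176, where 0.0538% of all genes passed) and in 17 of the 20 fits that left out 1 library each, although the difference itself stayed between -0.62 and -0.46. Of all genes, 2.01% passed in this comparison and 0.544% passed as lower, beside 1 of 10 members.

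The other members of the no-stress lineage did not pass between generations. Nr1d2 came next, with 123.8, 99.4, 111, 100 and 135 CPM in F2 no-stress mice, against 124.3, 133, 128, 147 and 163 CPM in F1 no-stress mice. The log2 difference was -0.29 ± 0.10 (adjusted p = 0.111, edgeR), and 4 of the 5 F2 no-stress mice lay below every F1 no-stress mouse, 1 of them only just. Arntl, the Bmal1 gene, averaged 30.0 ± 2.74 CPM in F2 no-stress mice and 25.1 ± 4.83 CPM in F1 no-stress mice, a log2 difference of 0.25 ± 0.14 (adjusted p = 0.31, edgeR). Cry1 differed by -0.20, Dbp by -0.24, and Clock, Per2, Per3, Cry2 and Nr1d1 by between -0.09 and 0.17. The Dbp difference was -0.59 with the GC and length offset. Besides Bhlhe41, Nr1d2 stood at an unadjusted p below 0.05, so 2 of 10 members did, against 20.2% of all genes.

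In the stress lineage, none of the 10 members differed between generations at the threshold, where 0.012% of all genes passed (edgeR). With DESeq2 and limma-voom the count of members was also 0. Per2 was measured at 18.3, 25.8, 22.1, 32.6 and 26.3 CPM in F2 stress mice, against 29.4, 34.1, 32.8, 40.1 and 24.9 CPM in F1 stress mice. Its log2 difference was -0.37 ± 0.16 (adjusted p = 0.693, edgeR), and the groups overlapped. Cry1 averaged 18.5 ± 1.35 CPM in F2 stress mice and 15.8 ± 1.18 CPM in F1 stress mice, a difference of 0.23 ± 0.11 (adjusted p = 0.699, edgeR). Per3 differed by -0.33 ± 0.16 and Nr1d1 by -0.19 ± 0.17, and the others by between -0.12 and 0.18. Per2 and Cry1 stood at an unadjusted p below 0.05, against 6.98% of all genes. No member had groups that were free of overlap in any of the 4 comparisons of groups. Such genes made up 4.62% of all genes between lineages in F2, 1.24% in F1, 0.777% between generations in the stress lineage and 4.52% in the no-stress lineage. These comparisons share groups: the same F2 no-stress mice enter the Cry1 difference from F2 stress mice and the Bhlhe41 difference from F1 no-stress mice.

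A list of 27 other clock genes was tested beside the members. It held paralogues such as Per1 and Npas2, the ROR receptors, the D-box factors Tef, Hlf and Nfil3, and the kinases and ubiquitin ligases that set the stability of Per and Cry proteins. In F2, 1 was higher and 1 lower in the stress lineage and 25 did not pass, a share close to the 7.91% of all genes. The median log2 difference of the list was 0.05, beside -0.14 for the members. Nampt, the enzyme of the NAD salvage pathway that the clock drives in mice, averaged 61.5 ± 5.96 CPM in F2 stress mice and 48.8 ± 1.93 CPM in F2 no-stress mice. The groups did not overlap (56.1 to 68.1 CPM in F2 stress mice, 46.8 to 50.9 CPM in F2 no-stress mice), and the log2 difference was 0.33 ± 0.10 (adjusted p = 0.0358, edgeR). Of all genes, 4.62% had groups free of overlap in this comparison. Csnk1e, the casein kinase that phosphorylates Per proteins, averaged 70.8 ± 4.23 CPM in F2 stress mice and 84.0 ± 5.76 CPM in F2 no-stress mice, a log2 difference of -0.25 ± 0.07 (adjusted p = 0.0389, edgeR). Its F2 groups did not overlap either, nor did those of Timeless, which was not called. With the GC and length offset, Nampt stood at 0.21 (adjusted p = 0.262) and Csnk1e at 0.03 (adjusted p = 0.886), so neither call was kept. In the other 4 comparisons 0 of 27 passed.

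Among the named genes of that list, Per1, a period gene that light and glucocorticoids induce quickly, averaged 63.6 ± 10.9 CPM in F2 stress mice and 81.4 ± 10.3 CPM in F2 no-stress mice. Its log2 difference of -0.36 ± 0.12 did not pass (adjusted p = 0.0751, edgeR), and with the offset it was 0.05. Npas2, a paralogue of Clock abundant in the forebrain, differed by -0.50 ± 0.25 (adjusted p = 0.222, edgeR). Ciart, a repressor of the Clock and Arntl pair, was estimated lower by the same amount in F2 in both lineages. It averaged 12.6 ± 3.03 CPM in F2 stress mice and 17.3 ± 3.35 CPM in F1 stress mice, and 13.2 ± 2.35 CPM in F2 no-stress mice and 18.2 ± 3.85 CPM in F1 no-stress mice. Both log2 differences were -0.46, with adjusted p of 0.643 and 0.144 (edgeR). For Rora, Rorb, Bhlhe40, Tef, Hlf and Nfil3 the F2 lineage differences ran from 0.03 to 0.31, and none passed.

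Genes known to respond to inputs of the clock were described by 3 further lists, beside the 7.91% of all genes that passed in F2. Of 15 genes that glucocorticoids induce, 1 was higher in F2 stress than in F2 no-stress mice. This was Errfi1, an inhibitor of growth factor receptors, by 0.38 ± 0.09 (adjusted p = 0.0188, edgeR). With the GC and length offset it did not pass (0.34, adjusted p = 0.11). Tsc22d3, a classical glucocorticoid target, differed by 0.39 ± 0.14 and did not pass (adjusted p = 0.0765), nor did Pdk4 at 0.34 ± 0.11 (adjusted p = 0.0623). Of 17 immediate early genes tested, which neurons switch on when active, 3 were lower in F2 stress than in F2 no-stress mice. These were Junb by 1.24 on the log2 scale, Npas4 by 1.0 and Ier2 by 1.0. Their estimates were -0.77, -0.76 and -0.57 with the GC and length offset, where none passed. In F2 stress, F2 no-stress, F1 stress and F1 no-stress mice, Junb averaged 6.57, 15.5, 7.55 and 7.08 CPM. Npas4 averaged 10.6, 21.3, 8.55 and 7.06 CPM, and Ier2 1.13, 2.27, 1.05 and 0.843 CPM, in the same order. Between generations in the no-stress lineage, 3 of the 17 passed as higher in F2 (0 with the offset), beside 2.01% of all genes in either direction. In the stress lineage 0 passed. Of 10 genes that follow temperature, 0 passed in F2 (edgeR). The cold-induced Rbm3 differed by 0.30 ± 0.11 (adjusted p = 0.0879), and the chaperone genes Hspa5 and Hspa8 by 0.21 each.

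Within groups, some of the clock genes varied together from mouse to mouse. The log2 CPM of each member was centred on its group mean and correlated over the 20 libraries for all 45 pairs, with a two-sided permutation test within groups and p-values adjusted over the 45 pairs. Of these pairs 40 had a positive r, 13 had an unadjusted p below 0.05 and 7 passed after adjustment, each of them positive. The tightest was Cry2 with Nr1d1, both targets of the activator, at r = 0.86 and rho = 0.86 (adjusted p = 0.00045, permutation test). The r was 0.82 without the 2 libraries farthest from the median of Cry2 alone, and 0.86 in F2 and 0.86 in F1 (n = 10 each). Dbp followed Nr1d1 at r = 0.77 (rho = 0.83, adjusted p = 0.00405, permutation test) and Cry2 at r = 0.68 (rho = 0.78, adjusted p = 0.0235, permutation test). Mice high in any of these 3 genes tended to be high in the others of their group. The pairs of Nr1d1 with Cry2 and with Dbp passed in all 20 fits that left out 1 library, and Cry2 with Dbp was lost in 2.

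The other 4 pairs that passed lay partly apart from this trio. Clock and Nr1d2 had r = 0.70 (rho = 0.51, adjusted p = 0.0262, permutation test), which was 0.54 without the 2 libraries farthest from the median of Clock and did not pass by rank (adjusted p = 0.155). Per2 and Per3 had r = 0.65 (rho = 0.72, adjusted p = 0.0235, permutation test), and 0.59 without the 2 libraries farthest from the median of Per2. Arntl and Cry2 had r = 0.56 (rho = 0.66, adjusted p = 0.0328), and Cry1 and Dbp had r = 0.59 (rho = 0.48, adjusted p = 0.0478, permutation tests). The Cry1 and Dbp pair was the weakest: its adjusted p was 0.163 by rank, and it did not pass in 11 of the 20 fits that left out 1 library. In such fits Clock with Nr1d2 was lost in 5, Arntl with Cry2 in 4 and Per2 with Per3 in 2. Arntl and Nr1d1, a target and its repressor, had r = 0.35, and 0.60 (adjusted p = 0.0317, permutation test) when the trend of each library with GC content and length was taken out. Clock and Nr1d1 had r = -0.27, and with that trend taken out the sign turned, to r = 0.79 (adjusted p = 0.00337, permutation test). The first component of the members held 41.1% of their variance and was led by Dbp (loading 0.44), Cry2 (0.40) and Nr1d1 (0.38). The second held 21.5% and was led by Clock (0.55) and Per3 (0.54) against Nr1d1 (-0.36).

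**Figure D3:**
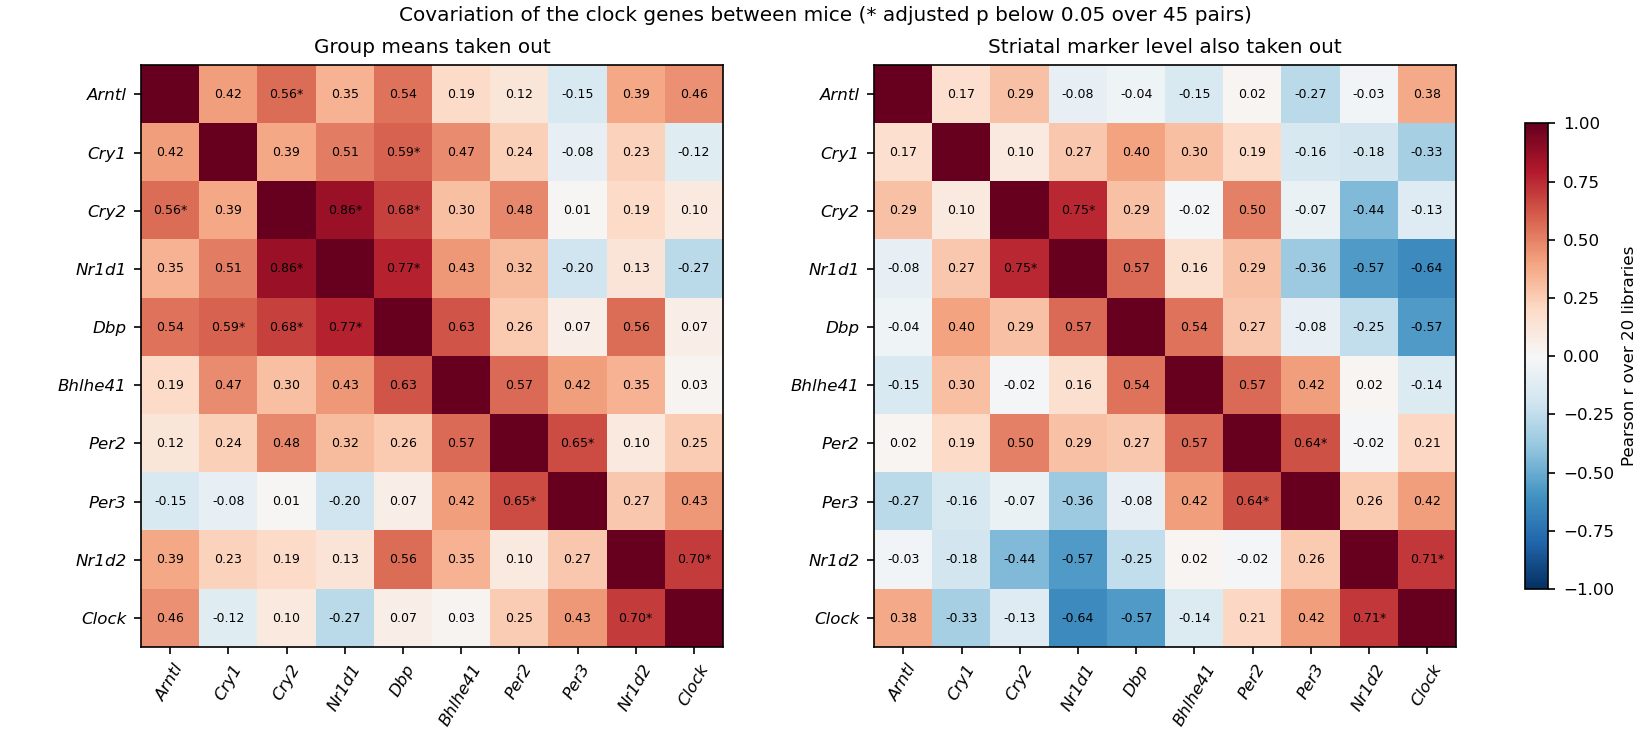
Pearson r between each pair of clock genes over 20 libraries, with group means taken out (left) and with the level of striatal markers also taken out (right). Stars mark pairs with an adjusted p below 0.05 over 45 pairs. On the left 7 pairs are starred, most of them with Cry2 or Dbp, and on the right the 3 starred pairs are Cry2 with Nr1d1, Clock with Nr1d2 and Per2 with Per3. Clock with Nr1d1, at -0.64 on the right, is not starred.

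The level of striatal neuron markers, which varied between the punches, moved with several members. The 15 markers, among them Drd1, Drd2 and Adora2a, summed to between 786 and 9830 CPM in F2 stress libraries, 2300 and 9380 in F2 no-stress libraries, 1660 and 5080 in F1 stress libraries and 2280 and 9320 in F1 no-stress libraries. None of the 15 had a mean below 1 CPM. Each member was correlated with the log2 of the summed CPM of 13 lists and with the GC contrast of the library. This makes 140 relations over which p-values were adjusted. Dbp followed the striatal level at r = 0.93 and rho = 0.93 (adjusted p = 0.0014, permutation test). The r was 0.91 without the 2 libraries farthest from the median of the striatal level, and 0.93 in F2 and 0.93 in F1 (n = 10 each). F2 stress replicate 14, with the lowest striatal sum, had the lowest Dbp at 28.8 CPM, and F2 stress replicate 15, with the highest, had the highest Dbp at 87.6 CPM. Nr1d2 (r = 0.68), Nr1d1 (0.66) and Cry2 (0.65) also passed with this level, with adjusted p of 0.0475, 0.0453 and 0.0452 (permutation tests), although Nr1d2 did not pass by rank (adjusted p = 0.0752). Clock, Arntl, Per2, Per3, Cry1 and Bhlhe41 did not.

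**Figure D4:**
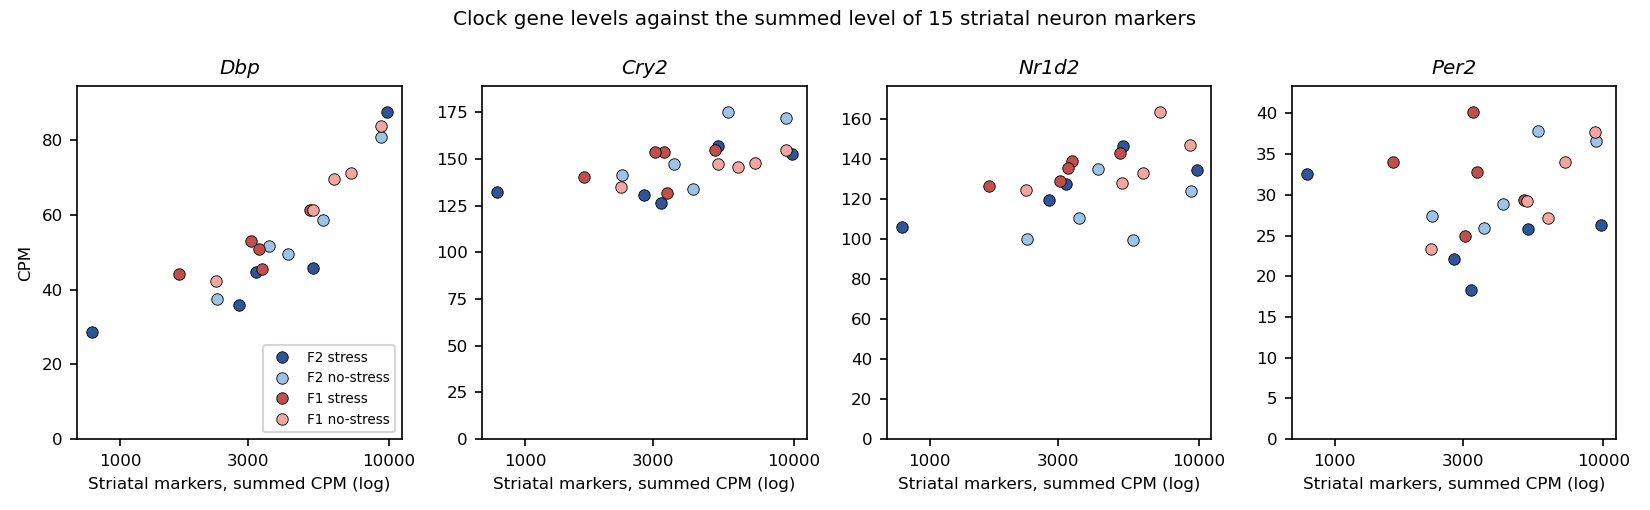
CPM of Dbp, Cry2, Nr1d2 and Per2 against the summed CPM of 15 striatal neuron markers (log axis), with a point for each of the 20 libraries coloured by group. Dbp tends to climb with the striatal sum, from 28.8 CPM at the lowest sum to 87.6 CPM at the highest. In F1 stress, the libraries with sums of 3059, 3280 and 3373 CPM go the other way, with Dbp at 53.0, 50.9 and 45.6 CPM. Per2, which did not pass with this level, is at 32.6 CPM at the lowest sum and 26.3 CPM at the highest.

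With the striatal level taken out of each member, an alternative added after the data were seen, 3 of the 45 pairs passed. They were Cry2 with Nr1d1 at r = 0.75, Clock with Nr1d2 at r = 0.71 and Per2 with Per3 at r = 0.64, each with an adjusted p of 0.0441 (permutation test). Dbp and Nr1d1 then stood at r = 0.57, and Clock and Nr1d1 at r = -0.64 (adjusted p = 0.0534), against 0.79 with the GC and length trend taken out. When instead the trend with GC content and length was taken out of each library, 14 pairs passed, and 6 of the 7 pairs were among them. The exception was Cry1 with Dbp (adjusted p = 0.0989).

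Other lists also moved with members between mice. The summed level of the 27 other clock genes followed Cry2 (r = 0.85), Dbp (0.85), Nr1d1 (0.80) and Arntl (0.72), with adjusted p between 0.0021 and 0.0247 (permutation tests). Such a sum is led by its most abundant genes, here Tef at a mean of 470 CPM beside a list median of 56.1 CPM. Gene by gene, r with Dbp ran from 0.94 (Tef) to -0.71 (Arntl2) within this list. The 15 glucocorticoid-induced genes followed Dbp (0.75), Nr1d1 (0.73) and Cry1 (0.69), with adjusted p of 0.0247, 0.0324 and 0.0452. By rank these 3 relations did not pass, at adjusted p of 0.123, 0.107 and 0.133. The most abundant gene in the glucocorticoid sum was Klf9, at a mean of 118 CPM beside a list median of 13 CPM. The summed level of the immediate early genes followed Arntl at r = 0.72 (adjusted p = 0.0247, permutation test). The most abundant gene in that sum was Homer1, at a mean of 154 CPM beside a list median of 15 CPM. Clock ran against the central amygdala markers (r = -0.69, adjusted p = 0.033) and against the GC contrast of the library (r = -0.72, adjusted p = 0.0247), and Nr1d2 against the central amygdala markers (r = -0.63, adjusted p = 0.0402). By rank these did not pass either, at adjusted p of 0.155, 0.0659 and 0.149. The central amygdala sum was led by Wfs1, at a mean of 241 CPM beside a list median of 30.8 CPM, so it weighs the 12 markers unequally. No member passed with pallial, hypothalamic, astrocyte, oligodendrocyte, microglial, endothelial, choroid plexus or temperature lists. As for the tissue itself, all 12 central amygdala markers and all 12 pallial markers had means of at least 1 CPM, while 8 of 10 hypothalamic markers lay below 1 CPM. The part of tissue composition in the members' covariation was not tested beyond the removal of the striatal level.

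The genes most like Dbp were sought among 15568 named genes with a mean of at least 1 CPM, by Pearson r over the 20 group-centred libraries, as a description. The highest were Lingo3 and Cbr3 (0.97 each), then Mchr1, Adcy5, Gnb5, Lzts3, Tmem158 and Tesc (0.96 each). Adcy5, the striatal adenylyl cyclase, is also among the 15 striatal markers. The lowest were Col25a1 (-0.95), Pak3, Cds2 and Slc8a1 (-0.94 each). Tef and Hlf, which encode the sister factors of Dbp, had r = 0.94 and r = 0.92, at ranks 28 and 61. Among the members, Nr1d1 stood at rank 593, Cry2 at 1008, Cry1 at 1529, Per3 at 6901 and Clock at 6937, so many other genes followed Dbp more closely than any member did. Usp2, Ciart and Npas2 stood at 0.86, 0.85 and 0.81, while Nfil3, which encodes the repressor at D-boxes, stood at -0.53. For Arntl the highest were Tarsl2 (0.89), Slc30a4 (0.88), Fgfr1op2, Wdr92 and Nckap1, and the lowest Cuedc1 (-0.89), Dip2a and Mast4 (-0.88 each), Vat1 and Slc2a12 (-0.87 each).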

How the data were processed

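The authors deposited 1 table of counts, whole numbers per gene and library. Per the labels' protocols, the libraries came from bilateral amygdala punches and a stranded poly-A kit. The submitters' processing notes name STAR 2.5.3a and the build GRCm38. Not given in the sources used here are the counter, its annotation and strand setting, and the step that brought the totals to within 0.439% of each other, so the depth before it is unknown.

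From these counts, edgeR 4.0.16 (R 4.3.3) was run with TMM factors, filterByExpr, robust quasi-likelihood dispersion and 1 mean per group over all 20 libraries. Calls used a Benjamini-Hochberg adjusted p below 0.05 over 16727 genes. The biological coefficient of variation was 18.1%. CPM used TMM-scaled totals, and correlations used log2 CPM (prior count 2) with 100000 permutations within groups, whose smallest p is 1e-05. Intervals of log2 differences are at 95%. Alternatives were DESeq2 1.42.0, limma-voom (limma 3.58.1), relative log expression factors, library totals, a CPM filter, no filter, a GC and length offset (splines with 5 degrees of freedom, GC known for 16692 genes), 1 surrogate variable (sva 3.50.0), fits of only the groups compared and fits without each library. Adding the striatal marker level was chosen after seeing the data. The fits were tested on simulated data. The members, the gene lists and the rule for named genes were chosen with earlier results of these data known. All members were named, with called and 9 preset genes of the other clock list, up to 3 genes of each other list by smallest p in F2, and the genes most and least like Dbp and Arntl. Gene positions and exon lengths came from GENCODE M21, promoters from RefSeq. Figures were drawn with Python 3.11.15.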

Additional observations from a re-analysis of the deposited data

Results flagged for a closer look

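Of 40 sets of 5 mice, 4 groups for each of 10 clock genes, 1 held a value far from the others. Cry1 stood at 17.8 CPM in F1 stress replicate 2, while the other F1 stress mice lay between 14.8 and 15.6 CPM. The gap was 0.72 of the group's range, beside Dixon's 95% critical value of 0.71. Chance gives such a value in about 1 in 20 groups, so 1 in 40 is within that rate. The replicate was kept in every result, and the fits that left it out are among the ranges given for the processing.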

How the results depend on the processing

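No paired analysis was possible because each mouse carries its own replicate number. The counts of all called genes moved most. In F1, 2 genes were called with DESeq2 and 1 with library totals, against 0 (0 to 1 with a library left out). In F2 between lineages, 8 were called with the GC and length offset, 2204 with 1 surrogate variable and 0 with only the groups compared, against 1323 (241 to 2432). For the difference of lineage effects, 1140 were called with DESeq2, 197 with no filter, 0 with the offset and 843 with the striatal level, against 422 (0 to 1501). Between generations in the stress lineage the counts were 6 (DESeq2), 1 (limma-voom), 0 (library totals), 4 (offset) and 0 (only the groups compared), against 2 (0 to 10). In the no-stress lineage they were 939 (DESeq2), 209 (library totals), 154 (no filter), 9 (offset), 649 (surrogate variable), 0 (only the groups compared) and 626 (striatal level), against 337 (0 to 725).

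Among members, the F2 lineage count was 1, always Cry1, with DESeq2, limma-voom, library totals, the CPM filter, the surrogate variable and the striatal level, and 0 to 1 with a library left out (Cry1, Nr1d1 or Per3). Apart from the surrogate variable and the range with a library left out, the counts of all genes in these F2 fits are not given here. Nr1d1 passed without F2 stress replicate 15 (-0.53, adjusted p = 0.0355, edgeR) or F2 no-stress replicate 20 (-0.50, 0.0492), and Per3 without F2 no-stress replicate 18 (-0.46, 0.0461). Cry1 passed without F2 stress replicate 14, F2 no-stress replicate 16, or F1 no-stress replicate 6 or 7. In the difference of lineage effects the count ran from 0 to 1, with Cry1 passing without F1 no-stress replicate 6 (0.50, 0.0485). Bhlhe41 in the no-stress lineage was not called with limma-voom, library totals, no filter, the offset or only the groups compared (0 of 10 each), and the count was 0 to 1 with a library left out, 1 without F1 no-stress replicate 6 or F2 stress replicate 14 or 15. Of the 45 pairs, 14 passed with the trend taken out and 3 with the striatal level taken out, against 7, and 3 to 8 with a library left out (3 without F1 no-stress replicate 6 or F2 no-stress replicate 16, 4 without F2 no-stress replicate 20).

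Signs turned only for differences that passed in no fit. In F1, Arntl stood at 0.08 and 0.05, Nr1d1 at 0.14 and 0.11, Nr1d2 at 0.05 and 0.05, and Dbp at 0.05 and 0.02, with the surrogate variable and with the striatal level, and Cry2 at -0.03 with the offset. With the offset, Cry2 stood at 0.11 and Dbp at 0.21 in F2, Cry2 at 0.14 in the difference of effects, Clock at 0.07 and Cry2 at 0.01 between generations in the stress lineage, and Per2 at -0.12, Cry2 at -0.13 and Nr1d1 at -0.12 in the no-stress lineage. Dbp in the difference of effects stood at -0.19 with the surrogate variable and -0.06 with the striatal level. With a library left out, F1 values ran from -0.02 to 0.04 for Cry2, -0.15 to 0.01 for Nr1d1 and -0.09 to 0.02 for Nr1d2. The difference of effects ran from -0.15 to 0.04 for Arntl and -0.16 to 0.34 for Dbp. Between generations, Clock ran from -0.08 to 0.01 and Dbp from -0.40 to 0.07 in the stress lineage, and Per2 from -0.03 to 0.14 in the no-stress lineage. The cause of these changes was not tested.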
